A study of Mus musculus with 6 samples.

Results

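The fibroblast growth factor (FGF) genes of stroma were described as a set of 10 genes, 6 ligands (Fgf1, Fgf2, Fgf7, Fgf10, Fgf18 and Fgf21) and 4 receptors (Fgfr1, Fgfr2, Fgfr3 and Fgfrl1), among 48368 gene symbols in the tables. Members were chosen by symbol and all 10 were found, and 9 of them passed the filter on low counts, as did 17584 genes in all. The libraries were whole-transcriptome RNA-seq of cultured fibroblasts taken from mammary tumours, with 3 libraries labelled heterozygous (HET, Hic-5+/-) and 3 labelled knockout (KO, Hic-5-/-). Hic-5, encoded by Tgfb1i1, is a LIM-domain adaptor of focal adhesions. All tumours came from MMTV-PyMT mice, in which a promoter active in mammary epithelium drives the polyomavirus middle T antigen, so both groups carry this transgene and HET libraries are not wild type. Fibroblasts were separated from tumour organoids by centrifugation and grown in serum. The series text calls the libraries technical triplicates. Age, passage and whether libraries came from separate animals are left unstated there and in the labels, apart from a number in each title that 1 HET and 1 KO library share (replicate 3 of each). The p-values therefore measure only the spread between these libraries.

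FGF ligands are secreted proteins that bind tyrosine kinase receptors together with heparan sulfate on the cell surface, and the activated receptor signals largely through the adaptor FRS2 to the Ras-ERK cascade. In many organs, the mammary gland among them, mesenchymal cells make Fgf7 and Fgf10, which act on the epithelial splice form of Fgfr2 in neighbouring epithelium, while fibroblasts mainly carry Fgfr1. Fgf2 and Fgf1 lack a classical signal peptide, Fgf18 acts in skeletal and lung mesenchyme, and Fgf21 is a circulating hormone that needs a Klotho co-receptor. Fgfrl1 binds ligand but has no kinase domain. Gene totals such as those deposited here do not tell splice forms apart.

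Library totals ran from 24954273 to 42470598 estimated counts. Levels below are CPM, counts scaled to a common library total, on totals scaled by TMM, a trimmed mean of ratios that evens out differences in library composition, and 3 counts correspond to 0.0682 to 0.119 CPM. Tgfb1i1 had 223, 348 and 125 CPM across HET replicates 1 to 3 and at 90.4, 0.232 and 156 CPM in KO replicates 1 to 3, so transcript of the targeted gene was plainly present in 2 libraries labelled KO, and groups are called by their labels. Of 14 fibroblast markers, 12 to 14 were above 3 counts in every library. Their summed level was 13650 to 29683 CPM under HET and 7925 to 10956 CPM in KO. It was lowest in KO replicate 2, at 7925 CPM, beside 9894 CPM in KO replicate 1. Col1a1 and Col1a2, the chains of type I collagen, stood at 2.56 and 0.491 CPM in KO replicate 2, while 12 of the 14 markers were above 3 counts there. The 13 epithelial markers summed to 70.4, 23.8 and 22.4 CPM in HET replicates 1 to 3 and to 30.0, 99.4 and 38.6 CPM in KO replicates 1 to 3. The 10 leukocyte markers summed to 1394 CPM in HET replicate 2 and to 1119 in KO replicate 3, against 7.73 to 39.6 CPM in the other 4 libraries. Of the 10, 5 were above 3 counts in KO replicate 2 and 4 in each of HET replicates 1 and 3 and KO replicate 1. Ptprc, Adgre1, Cd3e and Tyrobp were among those at 0 in KO replicate 2. Endothelial markers summed to at most 13.1 CPM anywhere. Pericyte and smooth muscle markers summed to 347 CPM in HET replicate 2 and to 38.2 to 90.6 CPM elsewhere. Adipocyte markers summed to 508 CPM in HET replicate 1 and to 68.8 to 227 CPM elsewhere. In bulk RNA, fewer cells of a type and less RNA per cell cannot be told apart.

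No FGF member differed between the labels past the adjusted threshold of 0.05 in edgeR's quasi-likelihood test, and the background over all tested genes was 0% as well. The unadjusted p was under 0.05 for 0 of 9 members, against 8.59% of all tested genes. For 0 of 9 members did the HET and KO libraries separate without overlap, against 15.5% of all tested genes. DESeq2 called 0 members, against 1.33% of genes, and limma-voom called 0, against 0%. The log2 fold change, KO relative to HET, was above 0 for 4 members and below 0 for 5, with a median of -0.02 beside 0.01 over all tested genes. That median ran from -0.57 (without HET replicate 1) to 0.56 (without HET replicate 2, with 6 of 9 above 0), and 3 of 9 were above 0 without KO replicate 2. The spread between libraries was wide for most members. On the log2 CPM scale (prior count of 2), 6 of the 9 members (Fgf1, Fgf2, Fgf7, Fgf10, Fgf18 and Fgfr2) differed by 3 or more between their lowest and highest library, against 17.5% of all tested genes, a limit chosen after the values were seen.

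**Figure D1:**
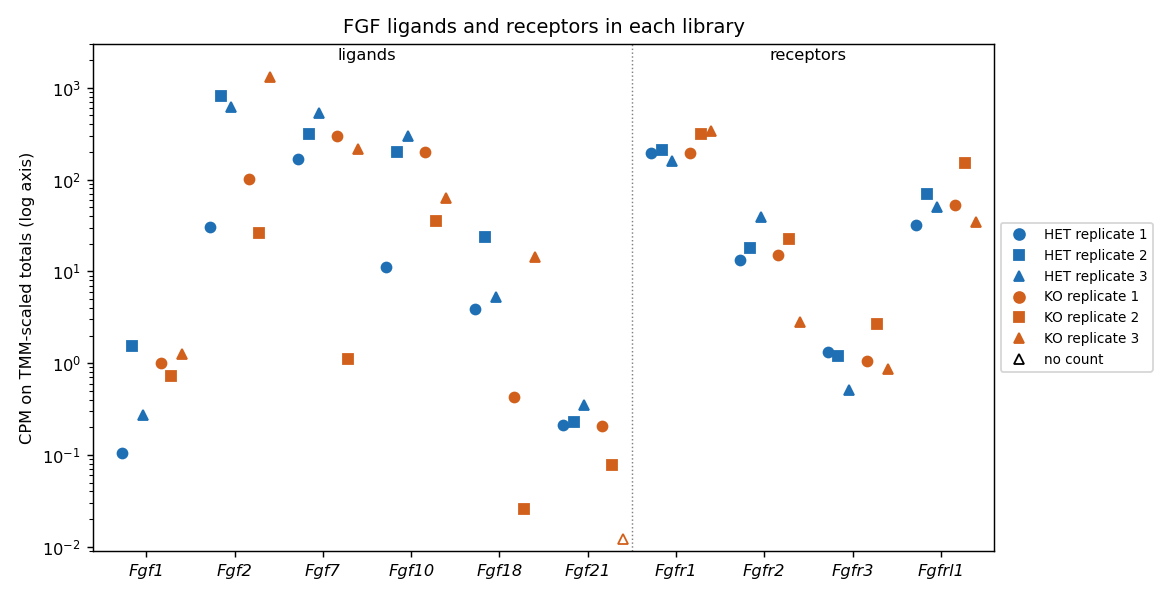
CPM of each FGF ligand and receptor (log axis) in the 3 HET libraries (blue) and the 3 KO libraries (orange), with replicates told apart by symbol; the open point at the bottom is Fgf21 in KO replicate 3, which had no count. Fgf2, Fgf7, Fgf10 and Fgf18 spread widely within a label, Fgfr1 stays between 159 and 334 CPM, and HET and KO overlap in each of the 9 tested genes; in Fgf21 they do not, at 9 counts or fewer.

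Fgf7, keratinocyte growth factor, is an epithelial mitogen made by mesenchyme (ENSMUSG00000027208.14, chromosome 2, 126034658 to 126091185, plus strand, GRCm38). It was an abundant transcript in 5 libraries and nearly missing from 1. HET replicates 1 to 3 held 169, 315 and 530 CPM, and KO replicates 1 to 3 held 298, 1.11 and 213 CPM. KO replicates 1 and 3 lay inside the HET range, and KO replicate 2 lay 268-fold below KO replicate 1. The means were 338 ± 181 CPM under HET and 170.8 ± 153 CPM in KO (SD, n = 3 each). On the log2 scale the change was -0.99 ± 1.43 (SE; edgeR adjusted p = 0.835), without KO replicate 2 it was -0.40, and limma-voom gave -2.93 (adjusted p = 0.642). Only 0.614% of tested genes had as wide a range over the 6 libraries. In KO replicate 2, where Fgf7 was lowest, Col1a1, Col1a2 and Tgfb1i1 were also lowest, although 12 of 14 fibroblast markers were above 3 counts there. The epithelial markers Krt8, Krt18 and Cdh1 were highest in it, at 13.7, 37.9 and 14.6 CPM, against at most 2.93 CPM elsewhere. Those 3 were picked after the values were seen and are the tested epithelial markers with an unadjusted p under 0.05 in edgeR. Summed over all 13 epithelial markers, the level was 99.4 CPM in KO replicate 2 and 70.4 CPM in HET replicate 1. As the 3 were at most 2.93 CPM each in HET replicate 1, most of its sum came from other markers of the list. The part of these differences between cultures in the level of Fgf7 was not tested.

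Fgf18 is a ligand of mesenchyme (ENSMUSG00000057967.12, chromosome 11, 33117430 to 33147400, minus strand), and on the log2 CPM scale with a prior count of 2 its range was second to that of Fgf7. Its level was 3.86, 23.5 and 5.26 CPM in HET replicates 1 to 3, and 0.432, 0.0258 and 14.3 CPM in KO replicates 1 to 3. The value in KO replicate 2 was a single count and so under the limit of 3 counts, while KO replicate 3 was higher than 2 of the HET libraries. The group means, 10.9 ± 11.0 CPM (HET) and 4.92 ± 8.13 CPM (KO; SD, n = 3 each), gave a log2 fold change of -1.15 ± 1.77 (SE; edgeR adjusted p = 0.845). DESeq2 gave it no adjusted p, and limma-voom gave -4.09 (adjusted p = 0.562). This value depended on which library was left out. Without KO replicate 3 the log2 fold change was -5.54 (unadjusted p = 0.0149, adjusted p = 0.393 in edgeR), and without HET replicate 2 it was 0.11. The 2 libraries in which Fgf18 was highest, HET replicate 2 and KO replicate 3, were also those with the highest summed leukocyte markers. Ptprc, the pan-leukocyte gene, had 288 and 143 counts there and at most 2 elsewhere. HET replicate 2 was also highest in the summed pericyte and smooth muscle markers, at 347 CPM against 77.4 CPM in KO replicate 3. With both left out, Fgf18 had a log2 fold change of -4.28 (unadjusted p = 0.0298, adjusted p = 0.819 in edgeR). The part of leukocytes in the level of Fgf18 was not tested.

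The promoters of these 2 ligands are shown because both transcripts were at their lowest in KO replicate 2, at 1.11 and 0.0258 CPM, and had the widest ranges of the members. Each is the 250 bases before the RefSeq start (GRCm38.p6), which for both is also where the GENCODE M21 gene begins. The Fgf7 window is chr2:126034408-126034657 on the plus strand and the Fgf18 window is chr11:33147401-33147650 on the minus strand. Capitals mark GGGCGG, the GC box bound by SP-family factors, on either strand.
Fgf7: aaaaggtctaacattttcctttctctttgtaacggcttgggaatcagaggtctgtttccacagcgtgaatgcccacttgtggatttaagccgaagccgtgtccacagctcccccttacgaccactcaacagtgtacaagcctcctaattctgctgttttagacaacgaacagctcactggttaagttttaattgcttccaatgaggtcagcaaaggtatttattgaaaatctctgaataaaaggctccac
Fgf18: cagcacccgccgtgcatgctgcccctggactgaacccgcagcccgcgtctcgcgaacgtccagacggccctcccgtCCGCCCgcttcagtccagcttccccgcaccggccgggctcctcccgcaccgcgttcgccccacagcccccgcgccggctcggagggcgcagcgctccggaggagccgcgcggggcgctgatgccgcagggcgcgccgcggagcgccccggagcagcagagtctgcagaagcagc

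The 2 windows differ in base composition. Bases G and C make up 43.6% of the Fgf7 window and 77.2% of the Fgf18 window, against a median of 52.4% over 32851 promoter windows of the same length. On both strands, 5 motifs were searched. GGGCGG was found in 32.7% of all windows, TATAAA in 12.4%, GGAATG (the core bound by TEAD factors) in 12.6%, TGANTCA (the AP-1 site) in 6.75% and CACGTG (an E-box) in 6.02%. The Fgf18 window held GGGCGG once, beginning 174 bases before the start, and the Fgf7 window held none of the 5. A match is a description of letters and not a binding site. RefSeq promoters were found for 8 of the 10 members, and those of the other members were not printed, as several lie inside the GENCODE gene.

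Fgf2, basic fibroblast growth factor (ENSMUSG00000037225.13, chromosome 3, 37348346 to 37410108, plus strand), reached the highest CPM of any member and had means that differed by far less than the spread between libraries. HET replicates 1 to 3 had 30.7, 814 and 622 CPM, and KO replicates 1 to 3 had 101, 26.2 and 1318 CPM. The libraries fell into low and high values under either label, with a 26.5-fold range within HET and a 50.2-fold range within KO. Means of 489 ± 408 and 482 ± 725 CPM (SD, n = 3 each) gave a log2 fold change of -0.02 ± 1.56 (SE; edgeR adjusted p = 0.997). The sign depended on the processing, as the value was 0.06 with library size as the scaling and -2.95 without KO replicate 3 (adjusted p = 0.435). HET replicate 2 and KO replicate 3, the libraries with the highest summed leukocyte markers, had the highest Fgf2 levels. HET replicate 3 followed, with leukocyte markers that summed to 39.6 CPM. Leaving out HET replicate 2 and KO replicate 3 together gave -2.36 (adjusted p = 0.822), and the part of leukocytes in the level of Fgf2 was not tested. The antisense gene Fgf2os, which overlaps the start of Fgf2, stood at 0.0354, 4.41 and 3.06 CPM under HET and 0.773, 0.0258 and 10.6 CPM in KO. It was high and low in the same libraries as Fgf2, though its values in HET replicate 1 and KO replicate 2 were 1 count each. Whether the counting used the strand of the read was not given in the sources used here, so reads of these overlapping genes may be shared, as may those of Nudt6 at the other end.

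Fgf10, the ligand of mesenchyme needed for branching of mammary and lung epithelium (ENSMUSG00000021732.14, chromosome 13, 118669791 to 118792115, plus strand), was lowest in a HET library. Its HET levels were 11.3, 202 and 300.1 CPM. In KO replicates 1 to 3 it stood at 200.9, 35.1 and 63.5 CPM, all within the HET range. The means were 171 ± 147 and 99.9 ± 88.7 CPM (SD, n = 3 each), a log2 fold change of -0.78 ± 1.12 (SE; edgeR adjusted p = 0.835). Without HET replicate 3 and KO replicate 3, which share a title number, it was 0.14. HET replicate 1, lowest in Fgf10, was the library with the highest Col1a1 and Col1a2, at 4948 and 5109 CPM.

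Fgf1 and Fgf21 were scarce. Fgf1, acidic fibroblast growth factor, is a ligand of all FGF receptors (ENSMUSG00000036585.16, chromosome 18, 38838673 to 38929472, minus strand). Its levels were 0.106, 1.54 and 0.275 CPM under HET and 1.00, 0.723 and 1.27 CPM in KO, that is 3 to 54 counts a library, with 3 counts in HET replicate 1. KO libraries lay within the HET range, and the log2 fold change was 0.62 ± 0.93 (SE; edgeR adjusted p = 0.841), 2.37 without HET replicate 2 (unadjusted p = 0.0213, adjusted p = 0.975) and 1.24 in limma-voom. Fgf21, the hormone-like ligand (ENSMUSG00000030827.5, chromosome 7, 45613886 to 45615490, minus strand), had 6, 8 and 9 counts in HET and 9, 3 and 0 in KO and did not pass the filter. On the CPM scale the HET libraries (0.213 to 0.353) lay just above the KO libraries (0 to 0.205), at counts too low for a test. A count of 0 in KO replicate 3 allows up to 0.119 CPM. Its co-receptor Klb had 2 to 7 counts in every library, and Kl had at most 3.

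Fgfr1, the main FGF receptor of fibroblasts, was the steadiest member (ENSMUSG00000031565.18, chromosome 8, 25513654 to 25575718, plus strand). Its levels were 193, 210.1 and 159 CPM across HET replicates 1 to 3, and 194, 315 and 334 CPM across KO replicates 1 to 3. KO replicates 2 and 3 were above every HET library and KO replicate 1 was within the HET range. The means were 187 ± 25.8 and 281 ± 75.8 CPM (SD, n = 3 each). On the log2 scale the change was 0.59 ± 0.28 (SE; unadjusted p = 0.0770, adjusted p = 0.592 in edgeR), the smallest p of the members, and it stayed above 0 in all 18 alternatives. With any 1 library left out it lay between 0.45 and 0.79, and no adjusted p in those fits was under 0.530. The unadjusted edgeR p was 0.0204 without KO replicate 1 and 0.101 to 0.206 in the other fits with 1 library left out. With library size alone as the scaling it was 0.0356 (adjusted p = 0.498). A larger share of all tested genes, 59.7%, had a range over the libraries at least as wide as that of Fgfr1.

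Fgfr2, the receptor whose epithelial form binds Fgf7 and Fgf10, was lower in level (ENSMUSG00000030849.18, chromosome 7, 130162451 to 133123350, minus strand). HET replicates 1 to 3 had 13.4, 17.9 and 38.8 CPM, and KO replicates 1 to 3 had 15.2, 22.3 and 2.79 CPM. Only KO replicate 3 fell outside the HET range, below it, and its partner by title number, HET replicate 3, was the highest of all. The log2 fold change was -0.80 ± 0.77 (SE; edgeR adjusted p = 0.743) and became 0.23 without those 2 libraries. The annotated gene spans 2960900 bases and encloses other genes. Several of them, such as Oat on the same strand with 5057 to 14522 counts, had far more counts than the 70.4 to 990.1 of Fgfr2, so the Fgfr2 value is not a total of all reads over that span.

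Fgfrl1, the receptor without a kinase domain (ENSMUSG00000008090.14, chromosome 5, 108692382 to 108706924, plus strand), had 32.2, 70.0 and 49.9 CPM under HET and 53.0, 152 and 34.1 CPM in KO. KO replicate 2 was the highest of the 6 libraries and the other KO libraries lay within the HET range. The log2 fold change of 0.65 ± 0.60 (SE; edgeR adjusted p = 0.732) turned to -0.22 without KO replicate 2. Fgfr3, a receptor best known from growth plate cartilage (ENSMUSG00000054252.18, chromosome 5, 33721674 to 33737068, plus strand), was scarce, at 1.31, 1.19 and 0.510 CPM under HET and 1.05, 2.69 and 0.872 CPM in KO. It too was highest in KO replicate 2, and its log2 fold change of 0.61 ± 0.62 (SE; adjusted p = 0.755) turned to -0.07 without that library. A processed pseudogene, Fgfr3-ps, had 0.00587 to 1.46 CPM under HET and 0.00998 to 1.10 CPM in KO in fractional counts, so the split of reads between these copies is uncertain. Fgfr4, the receptor that is not a member here, had at most 4 counts in any library.

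**Figure D2:**
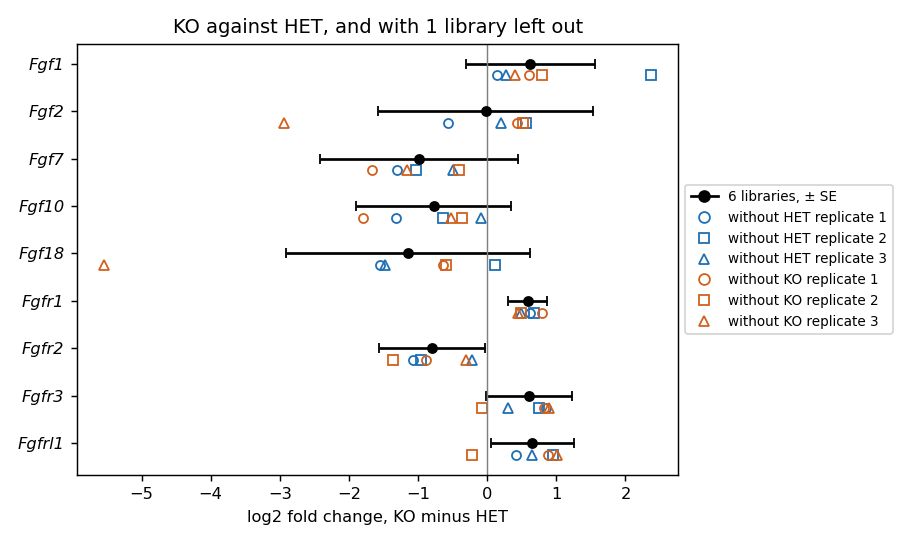
Log2 fold change (KO minus HET) of the 9 tested members with all 6 libraries (black, ± SE) and with 1 library left out (open symbols, coloured by the label of the library left out). Fgfr1 stays between 0.45 and 0.79, whereas Fgf2 runs from -2.95 to 0.56 and Fgf18 from -5.54 to 0.11.

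The deposited RPKM values could not be used as levels per transcript length. Over 13511 genes, the length that each RPKM implies was a constant 1.22 times the genomic span from GENCODE M21, introns included, for 91.7% of genes (within 1%), whereas for merged exons 0.666% of genes came within 1% of their median ratio. If only reads in exons were counted, a gene with long introns is thus placed too low against one with short introns. The counting method was not given, and the scale by merged exons below rests on the same assumption. On the RPKM scale the median over the 6 libraries put Fgf2 first (4.77), then Fgf7 (3.67), Fgfrl1 (2.93), Fgfr1 (2.62), Fgf10 (0.844), Fgf18 (0.120), Fgf21 (0.104), Fgfr3 (0.0584), Fgf1 (0.00821) and Fgfr2 last (0.00448).

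Dividing CPM by kilobases of merged exons, a scale chosen after the data were seen, gave another order. Fgf7 was first, with a median of 78.7 CPM per kb, before Fgf2 (53.2), Fgf10 (28.7), Fgfr1 (20.5), Fgfrl1 (18.5), Fgf18 (3.84), Fgfr2 (1.60), Fgf21 (0.219), Fgf1 (0.158) and Fgfr3 (0.157). Every gene overlapped its neighbour in this order over the 6 libraries. Fgfr2 was 10th by RPKM and 7th by exon length, with 10328 exonic bases in its 2960900-base span.

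Summed over the 6 ligands, the level was 62.6, 281 and 325 CPM per kb in HET replicates 1 to 3 and 151, 12.1 and 286 CPM per kb in KO replicates 1 to 3. The leading ligand differed between libraries of a label: Fgf7 in HET replicates 1 and 3 and KO replicate 1, Fgf2 in HET replicate 2 and KO replicate 3, and Fgf10 in KO replicate 2. The 4 receptors summed to 32.6, 48.4 and 37.9 CPM per kb under HET and 40.4, 89.0 and 46.5 CPM per kb in KO. KO replicate 2 therefore had the lowest ligand sum and the highest receptor sum, and its ratio of ligands to receptors was 0.136, against 1.92 to 8.57 in the other 5 libraries. Fgfrl1, which has no kinase domain, made up 61.3% of the receptor sum in KO replicate 2. Fgfr1 stood at 31.9 CPM per kb in that library and at 33.9 CPM per kb in KO replicate 3. These sums are descriptions of single libraries and were not tested.

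**Figure D3:**
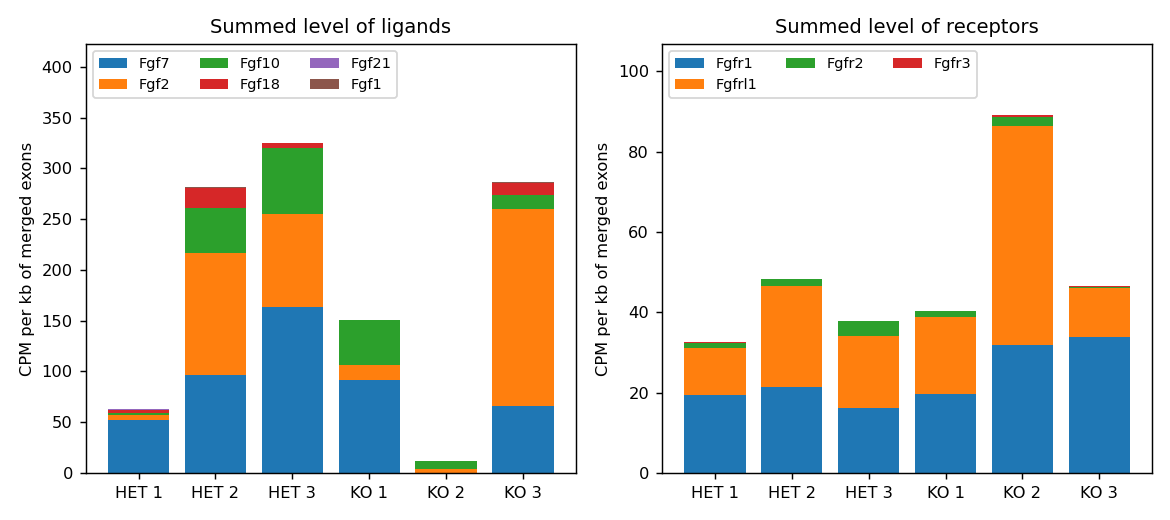
Stacked levels of the 6 ligands (left) and 4 receptors (right) in CPM per kb of merged exons, with 1 bar per library. The ligand bar is lowest in KO replicate 2 (12.1) and highest in HET replicate 3 (325), and the receptor bar is highest in KO replicate 2 (89.0).

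Genes of the rest of the pathway were described by lists of 106 genes in all, of which 86 were tested, and none passed edgeR's adjusted threshold. An unadjusted p under 0.05 was found for 13 of them (8 higher in KO, 5 lower), beside the background of 8.59% given above, and DESeq2 called 3, beside 1.33%. The HET and KO libraries did not overlap in 15 of the 86, near the 15.5% of all tested genes. A lack of overlap in a gene named below is to be read beside that share. Of 12 other FGF ligands none passed the filter. Among them Fgf9, a mesenchymal and epithelial ligand, reached 72 counts in HET replicate 2 and Fgf5 reached 91 counts in KO replicate 2. Of the intracellular FGF homologous factors, which are not secreted, Fgf11 and Fgf13 were tested, with log2 fold changes of -1.66 ± 0.96 and -0.78 ± 1.87 (SE; edgeR adjusted p = 0.619 and 0.904). Without HET replicate 2 these were -0.88 and 0.52, so the direction of Fgf13 turned.

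Heparan sulfate, the co-receptor of FGF signalling, had core protein genes with fold changes mostly below 0, in 10 of 12 tested genes with a median of -0.47. Sdc1, syndecan 1, stood at 680, 184 and 110 CPM under HET and 81.9, 123 and 107 CPM in KO, so the groups overlapped and HET replicate 1 stood far above the rest (log2 fold change -1.64 ± 0.69, SE, edgeR adjusted p = 0.582, and -0.49 without that library). Gpc6 and Gpc3, glypicans, had -0.94 and -2.34, and Agrn, agrin, had 1.12 (adjusted p = 0.617, 0.631 and 0.629). Gpc3 was scarce, at 3, 38 and 42 counts under HET and 20, 0 and 2 counts in KO. Its value ran from -4.61 to -1.68 with 1 library left out. The value of Agrn rested on KO replicate 2, at 71.1 CPM against 12.7 to 16.6 CPM elsewhere, and was -0.09 without it. Among 17 genes of heparan sulfate synthesis and editing, 11 were below 0 with a median of -0.42, and none passed edgeR. The median was -0.28 without HET replicate 3 and -0.11 without both replicates numbered 3. Hs6st2, a 6-O-sulfotransferase, stood at 282, 421 and 246 CPM under HET and 59.2, 34.7 and 198 CPM in KO, without overlap (-1.70 ± 0.67, adjusted p = 0.579). Hpse, the heparanase that cuts the chains, stood at 4.29, 9.27 and 5.22 CPM under HET and 1.27, 0.827 and 2.34 CPM in KO, again without overlap. Ndst3, an N-deacetylase and N-sulfotransferase, went the other way, at 0.177 to 0.902 CPM under HET and 1.59 to 4.73 CPM in KO. Hpse and Ndst3 had edgeR adjusted p = 0.579 each and DESeq2 adjusted p = 0.0325 and 0.0378. Hs3st3b1, a 3-O-sulfotransferase, had 5.80 ± 1.94 CPM under HET and 2.74 ± 0.449 CPM in KO (SD, n = 3 each; edgeR adjusted p = 0.579).

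Among the 8 tested genes for FGF binding and receptor modulation, 6 were above 0 with a median of 0.17. Without HET replicate 1 or without KO replicate 3, 4 of 8 were above 0 (medians 0.06 and 0.05), and without KO replicate 1 the median was 0.51. Cdh2, N-cadherin, which can associate with Fgfr1, stood at 69.0, 56.7 and 97.8 CPM under HET and 149, 181 and 133 CPM in KO, without overlap (log2 fold change 1.05 ± 0.27, SE, edgeR adjusted p = 0.579). Nptn, neuroplastin, was the other gene of this list whose libraries did not overlap (-0.40 ± 0.21, adjusted p = 0.603), while Flrt3 and Flrt2, FLRT membrane proteins, had 0.63 and 0.66 (0.823 and 0.836), or 0.13 each without HET replicate 1. Receptor-proximal signalling had 11 of 15 genes below 0 with a median of -0.09, but with library size as the scaling 9 of 15 were above 0 (median 0.04). Frs2, the docking protein of FGF receptors, stood at 102, 96.8 and 131 CPM under HET and 80.1, 43.5 and 98.3 CPM in KO, with 1 KO library inside the HET range (-0.57 ± 0.33, adjusted p = 0.619). The adaptors Gab2 and Crkl and the phospholipase Plcg1 had -0.95, 0.30 and 0.33 (0.674, 0.682 and 0.682), and Gab2 had -2.07 without KO replicate 3. In the Ras-ERK cascade 7 of 13 genes were below 0 with a median of -0.10, but with library size as the scaling 9 of 13 were above 0 (median 0.07). The kinase Braf stood at 51.8, 78.7 and 62.5 CPM under HET and 37.8, 46.1 and 43.0 CPM in KO, without overlap (-0.60 ± 0.22, adjusted p = 0.579). Ksr1, a scaffold of the cascade, had -1.51, Nras 0.38 and Map2k1 -0.56 (0.579, 0.593 and 0.617), and Ksr1 had -0.57 without HET replicate 1.

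Feedback inhibitors and transcriptional targets of FGF and ERK signalling leaned the other way from the heparan sulfate lists, also without a call in edgeR. Of 10 tested feedback inhibitors 8 had fold changes above 0, with a median of 0.74 that was 0.27 without KO replicate 1 (6 of 10 above 0). Spred2, an inhibitor of Ras-ERK signalling, had 35.3 ± 3.25 CPM under HET and 50.9 ± 6.88 CPM in KO (SD, n = 3 each; edgeR adjusted p = 0.579). Dusp5, an ERK phosphatase, stood at 20.1, 7.54 and 27.1 CPM under HET and 32.1, 42.9 and 169 CPM in KO, with KO replicate 3 far above the rest and no overlap (log2 fold change 2.15, adjusted p = 0.579, and 1.05 without that library). Il17rd and Dusp6 had 0.85 and 0.87 (0.662 and 0.668).

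All 9 target genes had fold changes above 0, with a median of 0.78 beside 0.01 over all tested genes, and 8 of 9 did without HET replicate 1 or without KO replicate 2. Etv4, an ETS factor induced by FGF signalling in many tissues, stood at 10.6, 6.91 and 15.7 CPM under HET and 70.6, 49.9 and 38.5 CPM in KO, without overlap (log2 fold change 2.26 ± 0.39, SE, edgeR adjusted p = 0.579, DESeq2 adjusted p = 2.1e-04). Myc stood at 64.6, 32.4 and 66.3 CPM under HET and 88.1, 165 and 151 CPM in KO, also without overlap (1.31 ± 0.38, edgeR adjusted p = 0.579). Fosl1 and Ier2, immediate early factors, had 0.87 and 0.67 (0.579 and 0.581), and Fosl1 had 0.41 without KO replicate 3. Etv4 was known from earlier results on these libraries when the list was made, and all the lists were chosen with such results known. Neither this list nor that of the feedback inhibitors is therefore independent evidence of a direction. As background, many receptors other than those for FGF signal through ERK.

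**Figure D4:**
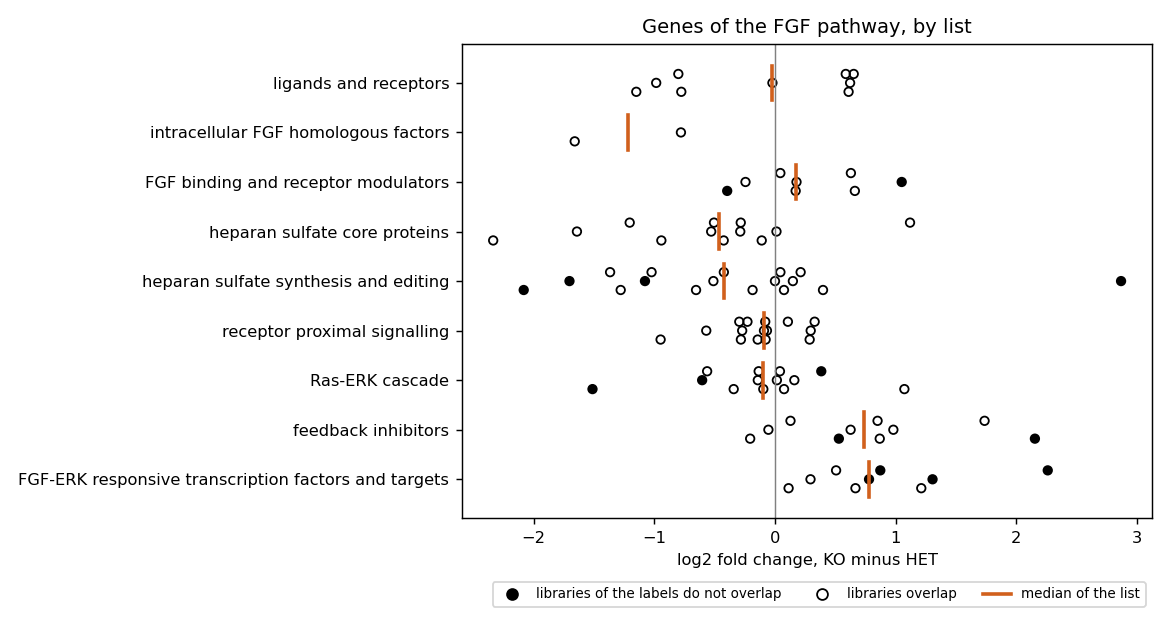
Log2 fold change (KO minus HET) of each tested gene of the FGF pathway, in rows by list, with filled points where the HET and KO libraries do not overlap and an orange bar at the list's median. The heparan sulfate lists have medians of -0.47 and -0.42, and the feedback and target lists of 0.74 and 0.78, while no gene passes the adjusted threshold in edgeR.

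The 3 tested genes nearest each member in pattern were found by the root mean square difference of log2 CPM, centred on each gene's mean, over the 6 libraries. For Fgf7 these were Grb10 (0.34), Tbx5 (0.37) and Gria3 (0.37). Grb10, an adaptor that restrains growth factor receptors, stood at 0.930 CPM in KO replicate 2 and at 187 to 636 CPM elsewhere, and Tbx5, a T-box factor, had no count in that library. For Fgf10 they were Pcdhga4 (0.30), Cdkn1c (0.35) and Hspb2 (0.38). For Fgf2 they were Dnajb3 (0.38), Serpinb9e (0.46) and Fbxo27 (0.52), each at most 3.73 CPM. For Fgf18 they were Ccl8 (0.58), a chemokine, Crip1 (0.60) and Gstk1 (0.73), and for Fgf1 they were Pgm2l1 (0.35), Rasgef1b (0.42) and Whrn (0.44). Fgfr1 was closest to Mphosph6 (0.08), Ptbp2 (0.09) and Kcnab3 (0.12), and Fgfr2 to Aff3 (0.33), Oplah (0.38) and Gpd1 (0.41). The nearest to Fgfrl1 were Mllt4 (0.19), Ogfod3 (0.19) and Cav2 (0.20), and the nearest to Fgfr3 were Rell1 (0.20), Stx11 (0.21) and Dennd5b (0.21). Within the set the closest pair was Fgfr1 and Fgfr3 (0.56) and the farthest was Fgf7 and Fgfrl1 (3.61), which were lowest and highest in the same library, KO replicate 2. Cdkn1c, Rasgef1b, Gpd1 and Kcnab3 were also low, at most 3.03, 1.01, 0.888 and 1.58 CPM in any library. All of these distances are descriptions over 6 libraries and carry no test.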

How the data were processed

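RNA was measured in 6 libraries prepared, per the labels' protocols, with a stranded, rRNA-depleting total RNA kit. Bowtie2, Partek and cutadapt 1.2.1 are listed as tools, and mm10 and GRCm38 as builds, per the submitters' processing notes. The annotation and the counting method are not given in the sources used here. Deposited by the authors were estimated counts per gene, of which 84.4% were whole numbers, and RPKM values, which were checked to divide by genomic span. Of 48408 table entries, 30 with shifted values were left out and 7 repeated symbols were summed. Counts were rounded, filtered with filterByExpr and scaled by TMM. They were tested with the quasi-likelihood test of edgeR 4.0.16 in R 4.3.3, two-sided, with Benjamini-Hochberg adjustment over all tested genes. The test was also run on simulated data, but the share of real changes it can find is not given here. A gene that did not pass is therefore not shown to be unchanged. SE is the absolute log2 fold change over the square root of F. Alternatives used DESeq2 1.42.0, limma 3.58.1, other scalings and filters, and libraries left out. Coordinates and exons are GENCODE M21 (GRCm38). Members, lists and rules were chosen with earlier results of these data known; the range limit of 3, the motifs and the exon-length scale were chosen after the values were seen. The named genes were the members, up to 4 genes per list with the smallest unadjusted p, and the 3 nearest in pattern, with unnamed gene models left out; Hic-5 was named as the targeted gene, and other genes were chosen after their values were seen. Floors of 3 counts cover counting error only.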

Additional observations from a re-analysis of the deposited data

How the results depend on the processing

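No member passed the adjusted threshold under any of the 18 alternatives, and the smallest adjusted p was 0.393 (Fgf18 without KO replicate 3). Of 162 member values under alternatives, 151 kept their direction and 11 did not. Fgf2 turned to 0.0641 with library size alone and to 0.000576 with upper quartile scaling. With HET replicate 3 and KO replicate 3 (the shared title number) both left out, Fgf10 turned to 0.14 and Fgfr2 to 0.23. With 1 library left out, the log2 fold change ran from -2.95 to 0.56 for Fgf2, -5.54 to 0.11 for Fgf18, -0.0714 to 0.89 for Fgfr3 and -0.22 to 1.01 for Fgfrl1. The other 5 tested members kept their direction. A term for the shared title number moved Fgf2 to -1.62 and Fgf18 to -4.19 (adjusted p = 0.801 and 0.739). DESeq2 called 232 genes and 3 pathway genes, where edgeR called 0; the cause was not tested. With library size alone, the median gene stood at 0.15 and not 0.01, and 10824 of 17584 genes were above 0, against 8950. The feedback median of 0.74 was 0.20 on log2(RPKM + 1) and 0.44 with limma-voom. On log2(RPKM + 1), where low values shrink toward 0, Fgf1 had 0.0056, Fgfr2 -0.0033 and the heparan sulfate editing median was -0.02. The binding and modulator median was 0.03 with limma-voom and -0.04 without both replicates numbered 3. No paired analysis was possible because the labels share only 1 title number between the groups. Depth limits Fgf1, Fgf21 and Fgf18 in KO replicate 2.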
